A study of Mus musculus with 2 samples.

Results

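The genes described here encode enzymes that make serine, glycine and one-carbon units from glucose and threonine. They were listed by name as Tdh, Gcat, Gldc, Shmt1, Shmt2, Mthfd2, Mthfd1l, Phgdh, Psat1 and Psph, and their values were taken from every probe set that the platform annotation gives exactly 1 gene symbol from that list. The rule found 8 probe sets of the 33793 on the array, 1 for each of 8 genes among the 22180 that have a probe set of their own. Tdh had no such probe set, and Gcat stands only on 2 probe sets that it shares with Galr3, so neither has a value of its own. The threonine branch is therefore not analysed here, and the values concern the serine, glycine and folate enzymes.

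The data are transcript levels of 2 samples of a mouse embryonic stem cell line that the labels call Niwa. One is a stable line expressing EWS-OCT4A-GFP, a fusion of EWS with the pluripotency isoform of OCT4, and the other is a stable line expressing GFP. Both lines were kept in stem cell medium with LIF, and endogenous OCT-4 was lowered in both with 1 µg/ml of doxycycline. The promoter that drives each transgene, the length of the treatment and whether a line is a clone or a pool are not stated in the labels. Each group has 1 sample, so there is no replicate check, no test and no p-value for any difference below. No sample without doxycycline was analysed, so a difference may lie in either line.

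Serine is made from a glycolytic intermediate in 3 steps catalysed by PHGDH, PSAT1 and PSPH. Serine hydroxymethyltransferases then split it into glycine and a one-carbon unit carried by folate, in the cytosol (SHMT1) and in mitochondria (SHMT2). MTHFD2 oxidises the mitochondrial unit, MTHFD1L releases it as formate for purine synthesis, and the glycine cleavage system, whose first enzyme is GLDC, draws a further unit from glycine. Mouse embryonic stem cells are known for their dependence on threonine, which TDH and GCAT turn into glycine and acetyl-CoA.

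Of the 8 measured genes, 5 were at least 2-fold higher in EWS-OCT4A-GFP cells, 1 was lower by as much and 2 stayed within 2-fold. The higher ones were Shmt1, Mthfd2, Shmt2, Mthfd1l and Psat1, the lower one was Gldc, and Phgdh and Psph differed least. A gene counted as higher or lower when the deposited values, taken as log2, differed by at least 1 and the higher of the pair reached a floor of 4.10, the median of all values. All 8 genes were above that floor in both samples. Across the array, 9.31% of the 13516 genes that reached the floor were higher by 2-fold or more, and 11.9% were lower by 2-fold or more. The median log2 difference was 1.05 over the 8 genes, against 0.00 over all 22180 genes. The listed genes were chosen with earlier results of these data known, so the count describes them and does not test them.

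**Figure D1:**
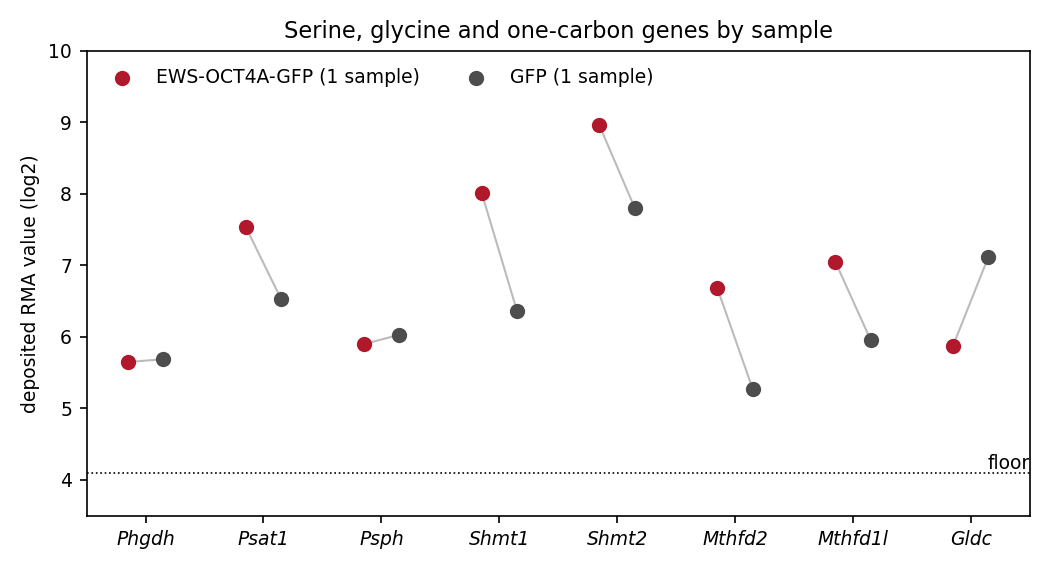
Deposited RMA values (log2) of the 8 measured genes in EWS-OCT4A-GFP cells (left point of each pair) and the GFP sample (right point), 1 sample each. The left point is the higher of the pair for Psat1, Shmt1, Shmt2, Mthfd2 and Mthfd1l and the lower for Gldc, and all points lie above the floor of 4.10 (dotted line).

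The starts of the genes that differed by 2-fold are shown because 5 of them were higher together and 1 was lower. Each line gives the 120 bases before the transcription start, on the strand of the gene, from RefSeq with build GRCm38.p6. The windows are chr11:60811266-60811385 (Shmt1, minus strand), chr10:127522445-127522564 (Shmt2, minus), chr6:83317605-83317724 (Mthfd2, minus), chr10:3972955-3973074 (Mthfd1l, plus), chr19:15925060-15925179 (Psat1, minus) and chr19:30175442-30175561 (Gldc, minus). Capitals mark the letters CCAAT, or ATTGG where they lie on the other strand. Psat1 has 2 starts, of which only the upstream one is shown. The window of its other start held 0 of these matches.
Shmt1: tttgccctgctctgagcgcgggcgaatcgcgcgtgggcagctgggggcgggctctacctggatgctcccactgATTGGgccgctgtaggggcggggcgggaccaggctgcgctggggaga
Shmt2: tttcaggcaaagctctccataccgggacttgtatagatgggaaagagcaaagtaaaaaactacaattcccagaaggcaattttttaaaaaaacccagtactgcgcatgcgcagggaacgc
Mthfd2: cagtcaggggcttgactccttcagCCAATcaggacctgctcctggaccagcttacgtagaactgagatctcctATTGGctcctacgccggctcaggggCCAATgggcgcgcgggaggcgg
Mthfd1l: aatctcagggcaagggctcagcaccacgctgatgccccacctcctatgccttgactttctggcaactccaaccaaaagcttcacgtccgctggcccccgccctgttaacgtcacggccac
Psat1: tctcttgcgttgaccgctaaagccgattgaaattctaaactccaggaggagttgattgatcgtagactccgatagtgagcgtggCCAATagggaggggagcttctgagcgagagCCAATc
Gldc: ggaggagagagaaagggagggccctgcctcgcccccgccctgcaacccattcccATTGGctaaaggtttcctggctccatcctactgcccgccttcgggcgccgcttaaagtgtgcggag

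RefSeq windows of 300 bases, 250 before and 50 after a start, were available for 9 of the 10 listed genes, 10 windows in all since Psat1 has 2 starts. The letters CCAAT, searched on both strands, were in 6 of the 10 windows, against 37.4% of all 32851 windows. This search was added after the sequences were seen. The 6 windows belong to Psat1 (the upstream start), Mthfd2 and Shmt1, which were higher, to Gldc, which was lower, and to Phgdh and Psph, which stayed within 2-fold. Mthfd2 held 3 matches, beginning 96, 47 and 22 bases before its start. Psat1 held 2 before its start, at 36 and 6 bases, and 1 after it. Shmt1 held 1, at 47 bases, and Gldc 1, at 66 bases. The octamer ATGCAAAT, the SOX motif CATTGTT and the C/EBP-ATF element TGATGNAA were in 0 of the 10 windows, against 1.74%, 3.78% and 3.97% of all windows. The E-box CACGTG was in 1, that of Gcat, against 7.15% of all windows. CCAAT overlaps none of the other matches in these windows. A match or its absence describes these letters in these windows and nothing about a factor.

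The serine synthesis enzymes did not differ alike. Phgdh, which encodes the dehydrogenase of the first step (probe set 17408273), read 5.65 in EWS-OCT4A-GFP cells and 5.69 in GFP cells, a log2 difference of -0.04. Psat1, the aminotransferase of the second step (probe set 17363204), read 7.54 in EWS-OCT4A-GFP cells and 6.53 in GFP cells. Its difference of 1.01, or 2.01-fold, lay just past the 2-fold mark and was under it at 0.98 with each array centred on its median and at 0.92 with loess centring. Psph, the phosphatase of the last step (probe set 17453124), read 5.90 in EWS-OCT4A-GFP cells and 6.03 in GFP cells, a difference of -0.13. So 1 of the 3 steps was higher by the 2-fold rule, and Phgdh and Psph were nearly level between the samples.

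Both serine hydroxymethyltransferase genes were higher in EWS-OCT4A-GFP cells. Shmt1, the cytosolic enzyme (probe set 17263673), read 8.02 in EWS-OCT4A-GFP cells and 6.36 in GFP cells. Its difference of 1.65, or 3.15-fold, was the largest of the 8, and 3.13% of genes at or above the floor were higher by as much. Shmt2, the mitochondrial enzyme (probe set 17245902), read 8.96 in EWS-OCT4A-GFP cells and 7.80 in GFP cells, a difference of 1.16 or 2.23-fold. A difference of that size or more was seen for 6.95% of genes. Without replicates, whether the cytosolic gene differed more than the mitochondrial one cannot be said.

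The genes of the mitochondrial folate enzymes MTHFD2 and MTHFD1L were also higher. Mthfd2, the methylenetetrahydrofolate dehydrogenase and cyclohydrolase (probe set 17468143), read 6.68 in EWS-OCT4A-GFP cells and 5.27 in GFP cells, a difference of 1.41 or 2.65-fold. Mthfd1l, the formyltetrahydrofolate synthetase that releases formate (probe set 17231387), read 7.05 in EWS-OCT4A-GFP cells and 5.96 in GFP cells, a difference of 1.09 or 2.14-fold. As large a positive difference was seen for 4.52% of genes in the case of Mthfd2 and for 7.78% in that of Mthfd1l. Mthfd1, the cytosolic enzyme that combines both activities, was not a listed gene and was named after its value was seen. It read 8.61 in EWS-OCT4A-GFP cells and 8.05 in GFP cells, a difference of 0.56.

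Gldc was lower in EWS-OCT4A-GFP cells. It encodes the glycine decarboxylase of the glycine cleavage system (probe set 17363865) and read 5.88 in EWS-OCT4A-GFP cells and 7.12 in GFP cells. Its difference of -1.24 corresponds to a level 2.37-fold higher in GFP, and 8.79% of genes were lower by as much. Among the partners of GLDC in the same system, Amt, the aminomethyltransferase that passes the one-carbon unit to folate, was higher. It read 7.78 in EWS-OCT4A-GFP cells and 6.17 in GFP cells, a difference of 1.61. Dld, the dihydrolipoamide dehydrogenase that also serves other complexes, differed by -0.76, Gcsh, the lipoyl carrier protein, by 0.34, and Lipt2, an enzyme of protein lipoylation, by 0.38. The values of Gcsh and Lipt2 lay between the 25th and 75th percentiles of genes that reached the floor, -0.46 and 0.46. The list of 5 measured genes also holds Lias (0.13), which like Lipt2 serves lipoylation and is not a part of the system itself. Of the 5, Amt was the 1 at least 2-fold higher and 0 were lower by as much, with a median of 0.34. All 5 reached the floor. A count of 1 in a list of this size lies near the array's shares of 9.31% higher and 11.9% lower.

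**Figure D2:**
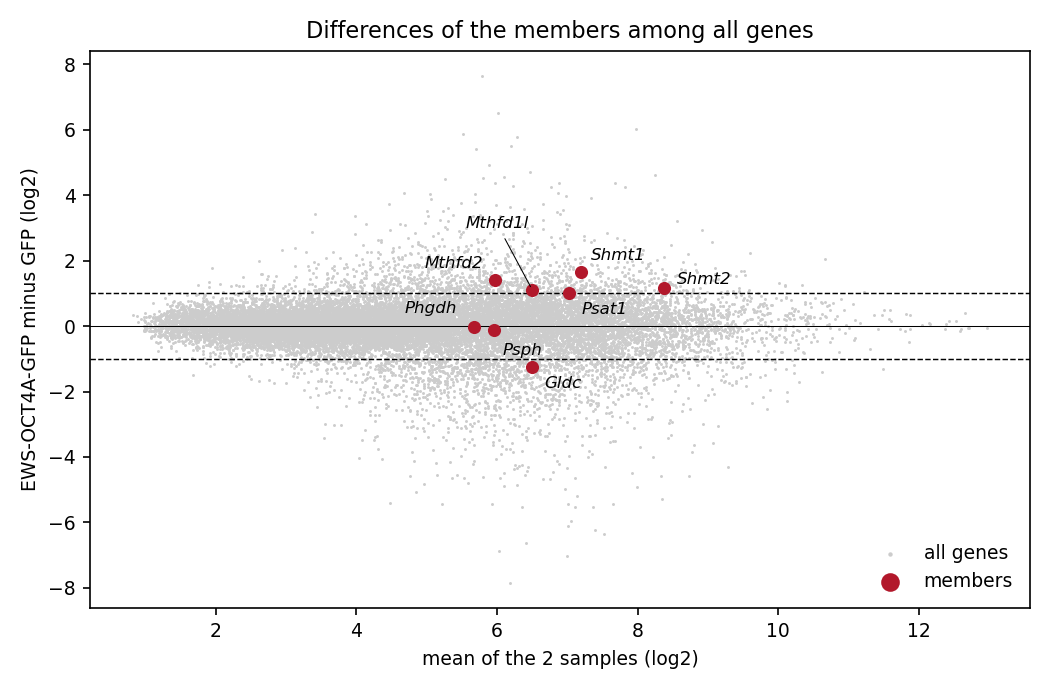
Log2 difference, EWS-OCT4A-GFP minus GFP, against the mean of the 2 samples for 22180 genes (grey), with the 8 measured genes in red and dashed lines at 2-fold. The 8 genes lie between -1.24 and 1.65, within the cloud of other genes, which runs from -7.84 to 7.65.

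The sizes were moderate for this pair of samples. The 5th and 95th percentiles of the difference among genes that reached the floor were -1.70 and 1.35. Shmt1 and Mthfd2 exceeded the 95th percentile, and Gldc did not pass the 5th. The genes whose 2 values lay nearest to those of Shmt1 were the checkpoint kinase gene Chek1 (8.01 in EWS-OCT4A-GFP cells and 6.31 in GFP cells), the DNA ligase gene Lig1 (7.98 in EWS-OCT4A-GFP and 6.42 in GFP) and the kinase gene Mok (7.95 in EWS-OCT4A-GFP and 6.36 in GFP). Their distances were 0.05, 0.07 and 0.07 over only 2 values, so the likeness rests on those 2 values alone.

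The samples differed in their lineage markers. Their counts stand beside the array's 9.31% higher and 11.9% lower among genes that reached the floor. Of the 10 markers in each list, 9 pluripotent, 10 trophectoderm, 9 primitive endoderm and 8 fibroblast markers reached it. Of 10 pluripotent cell markers, 9 were at least 2-fold higher in EWS-OCT4A-GFP cells, where their linear values summed to 7178, against 716 in GFP cells. Of 10 trophectoderm markers, 8 were lower in EWS-OCT4A-GFP cells by 2-fold or more, with sums of 334 in EWS-OCT4A-GFP cells and 5590 in GFP cells. Among the larger differences, Krt8 and Gata2 read 5.70 and 4.29 in EWS-OCT4A-GFP cells and 10.99 and 9.74 in GFP cells, although both samples are labelled embryonic stem cells. The trophectoderm markers Cdx2 (-0.55) and Elf5 (-0.81) stayed within 2-fold. Primitive endoderm markers summed to 388 in EWS-OCT4A-GFP cells and 824 in GFP cells, with 5 of 10 lower by 2-fold. The lower ones were Dab2, Col4a1, Gata6, Lamb1 and Pdgfra. In contrast, Gata4, Sox7, Foxa2 and Sparc stayed within 2-fold, and Sox17 was under the floor. Fibroblast markers summed to 2261 in EWS-OCT4A-GFP cells and 973 in GFP cells, with a median difference of 0.04. Of these, 2 were higher (Fn1 at 1.33 and Vim at 2.15) and 1 was lower (Postn at -4.04), counts near the array's shares. Fn1 and Vim have the highest values of that list, and the other, dimmer probe set of Vim gave 0.69, under 2-fold. The collagen genes Col1a1 (-0.08) and Col1a2 (0.07) were near 0. No marker was at 0, since RMA values have no 0. The part of these markers in the values of the one-carbon genes was not tested. In such bulk RNA, fewer cells of a type and less RNA per cell cannot be told apart. The mouse genes of the fusion's parents read 5.37 in EWS-OCT4A-GFP cells and 5.24 in GFP cells for Pou5f1, and 8.46 in EWS-OCT4A-GFP and 8.35 in GFP for Ewsr1. The labels do not say whether these probes read the human sequences, so the values are no check of the labels.

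The lists that follow cover neighbouring pathways, and their counts are read, over the genes that reached the floor, against the array's 9.31% higher and 11.9% lower. All measured purine genes and transporters reached it. Counts of 1 or 2 in lists of this size lie near those shares. Purine synthesis takes up one-carbon units as formyltetrahydrofolate at a pair of steps. Of its 11 measured genes, 4 were at least 2-fold higher in EWS-OCT4A-GFP cells and 1 was lower by as much, with a median difference of 0.42. That median depended on the probe set rule. It was 0.90 with the probe set of largest difference for each gene and 0.66 with several-symbol probe sets added, and with loess centring 3 genes were higher. Prps1, which makes the ribose phosphate donor, read 8.02 in EWS-OCT4A-GFP cells and 5.84 in GFP cells, a difference of 2.18. Ppat, the amidotransferase of the committed step, differed by 1.78 and Paics, a bifunctional enzyme of the middle of the pathway, by 1.45. Among the genes of the formyl-transfer steps, Atic differed by 1.05 and Gart by 0.42. The other probe sets of Gart gave 0.95 and 0.19. The member at least 2-fold lower was Adssl1, an adenylosuccinate synthase known from muscle, at -1.03. Gart and Adssl1 were named after their values were seen.

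Of 15 other folate genes measured, 12 reached the floor, of which 0 were at least 2-fold higher and 2 were lower by as much. The median over the 15 was 0.26. This share lies near that of the array. Folr1, folate receptor alpha, read 7.50 in EWS-OCT4A-GFP cells and 8.68 in GFP cells, a difference of -1.18. Slc46a1, the proton-coupled folate transporter, read 6.77 in EWS-OCT4A-GFP cells and 7.94 in GFP cells, a difference of -1.16. The other folate carriers of the list, Slc19a1 (-0.11), Folr2 (-0.29) and Slc25a32 (-0.18), stayed within 2-fold. Mthfd2l, the paralogue of Mthfd2, differed by 0.92 and Fpgs, which adds the glutamate tail that holds folate in cells, by 0.77.

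The methionine cycle uses folate-borne units to regenerate methionine, and transsulfuration joins homocysteine to serine. Of 15 measured genes of this group, polyamine enzymes included, 11 reached the floor, of which 3 were at least 2-fold higher and 1 was lower by as much. The median over the 15 was 0.19. Cth, the cystathionine lyase that forms cysteine, read 7.20 in EWS-OCT4A-GFP cells and 5.47 in GFP cells, a difference of 1.73. Ahcy, which hydrolyses adenosylhomocysteine, differed by 1.56 on its brighter probe set and by 0.68 on the other. Odc1, the ornithine decarboxylase of polyamine synthesis, differed by 1.45. Ahcyl2, a relative of Ahcy, differed by -1.13.

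Other enzymes that use serine, glycine or threonine showed no common direction. Of 18 measured, 13 reached the floor, of which 1 was at least 2-fold higher and 1 was lower by as much. The median over the 18 was -0.04. Pipox, the peroxisomal sarcosine oxidase that yields glycine, read 8.83 in EWS-OCT4A-GFP cells and 4.10 in GFP cells. Its difference was 4.72, with the GFP value at the floor, where background is unknown. Srr, the serine racemase, read 4.81 in EWS-OCT4A-GFP cells and 7.66 in GFP cells, a difference of -2.85. Alas1, which joins glycine to succinyl-CoA for heme, differed by -0.95 and Tars, the threonyl-tRNA synthetase, by 0.70.

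Of the 17 measured genes in the transporter list, 0 were at least 2-fold higher and 3 were lower by as much, with a median of 0.19. The list also holds relatives of such carriers, among them Slc25a39 and Slc36a4, so it is not limited to transporters of these amino acids. Slc6a14, a carrier of neutral and cationic amino acids, read 3.86 in EWS-OCT4A-GFP cells, under the floor, and 7.50 in GFP cells, a difference of -3.64. Slc7a8, the exchanger LAT2, read 5.22 in EWS-OCT4A-GFP cells and 7.97 in GFP cells, a difference of -2.75. Slc38a1, a sodium-coupled neutral amino acid carrier, read 8.77 in EWS-OCT4A-GFP cells and 10.32 in GFP cells, a difference of -1.56. Slc1a5, a carrier of serine and glutamine, had the largest of the positive differences at 0.87 (0.34 on its other probe set).

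**Figure D3:**
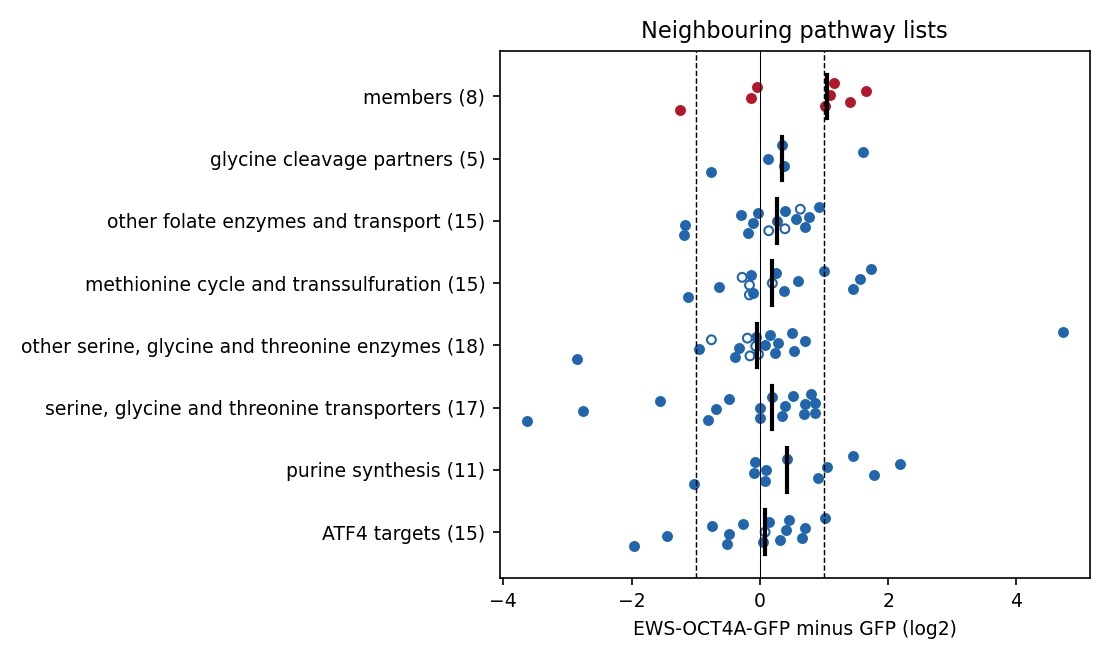
Log2 difference, EWS-OCT4A-GFP minus GFP, of each measured gene (points) by list, with the number measured in parentheses, the list median as a black bar and dashed lines at 2-fold. Open points are genes under the floor in both samples. The 8 listed one-carbon genes (red) have a median of 1.05, and the other lists have medians between -0.04 and 0.42, the highest of which, for purine synthesis, was 0.90 with the probe set of largest difference for each gene.

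The transcription factor ATF4 is known to induce Phgdh, Psat1, Shmt2 and Mthfd2 under amino acid shortage. Of 15 measured genes from a list of ATF4 and some of its other targets, 14 reached the floor. Of those 14, 1 was at least 2-fold higher and 2 were lower by as much. The list is not complete, and genes placed in the lists above, such as Cth and Tars, were not counted in it. The median over the 15 was 0.08. Asns, asparagine synthetase, read 7.85 in EWS-OCT4A-GFP cells and 6.84 in GFP cells, a difference of 1.01 that lay under 2-fold with median or loess centring. Cebpb, a transcription factor gene, read 4.07 in EWS-OCT4A-GFP cells, under the floor, and 6.04 in GFP cells, a difference of -1.97. Vldlr, a lipoprotein receptor gene, differed by -1.44, and Ddit3, which encodes CHOP, by -0.75. Atf4 itself, named after its value was seen, read 7.27 in EWS-OCT4A-GFP cells and 6.97 in GFP cells, a difference of 0.31. ATF4 protein was not measured, and its part in the values of the one-carbon genes was not tested.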

How the data were processed

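Transcript levels were measured on an Affymetrix array from total RNA, with 1 sample per group. The authors deposited 1 value per probe set and sample, RMA summaries from Affymetrix Expression Console 1.1 per the submitters' processing notes, and these deposited values were taken as log2 from their range of 0.62 to 13.0, since the table states no log base. RMA quantile-normalizes the arrays, so a change common to most transcripts would be hidden. The design text speaks of duplicates, but no source used here says whether a column averages several arrays, and their number limits the precision.

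Differences are EWS-OCT4A-GFP minus GFP. Of 33793 probe sets, 23521 had 1 gene symbol, 1814 several and 8458 none. The brightest probe set by its mean stood for a gene with several. The members, the 7 pathway lists, the 4 marker lists and the motifs were chosen with earlier results of these data known. Named were all members and up to 4 genes per pathway list with the largest absolute difference at or above the floor. Also named were Pou5f1 and Ewsr1, the 3 genes nearest to Shmt1, and others where stated. Outside this rule, the other folate carriers, Lias, Slc25a39, Slc36a4 and single marker genes were named as well. Python 3.11.15, numpy 2.4.6, pandas 2.3.3 and statsmodels 0.14.6 were used. The alternatives varied the threshold, floor, normalization and probe set rule.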

Additional observations from a re-analysis of the deposited data

How the results depend on the processing

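No paired analysis was possible because there is 1 sample per group, and for that reason no replicate could be left out. With a 1.5-fold threshold 5 of the 8 genes were higher and 1 was lower. With a 3-fold threshold 1 was higher and 0 lower, since the differences of Gldc (-1.24), Shmt2 (1.16), Mthfd2 (1.41), Mthfd1l (1.09) and Psat1 (1.01) are smaller than 3-fold. Psat1 fell under 2-fold with median centring (0.98) and loess centring (0.92), and Mthfd1l lay at 1.00 with loess centring. With both probe sets that Gcat shares with Galr3 added as separate values (differences of 0.84 and -0.19), the median of the 10 probe sets was 0.92. Quantile normalization, the 3 other floors and the other probe set rules changed no call of a member.

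In the neighbouring lists, the 1.5-fold threshold gave 1 lower among glycine cleavage partners, 3 higher among folate genes, 5 higher and 2 lower in the methionine group, 2 and 2 among other enzymes, 5 and 5 among transporters, and 3 higher and 3 lower among ATF4 targets. The 3-fold threshold gave 0 lower among folate genes, 1 higher and 0 lower in the methionine group, 2 higher and 0 lower in purine synthesis, and 0 higher and 1 lower among ATF4 targets. A floor at 5.80 or at 6 left 0 lower in purine synthesis and 1 lower among ATF4 targets. Median and loess centring gave 0 ATF4 targets higher. Loess centring gave 2 other enzymes lower and 3 purine genes higher, and quantile normalization 4 methionine genes higher. The purine median was 0.31 with loess centring, 0.90 with the probe set of largest difference and 0.66 with several-symbol probe sets added. The transporter median was 0.00 with probe sets averaged or chosen by largest difference. Signal over background is unknown, which limits genes near the floor.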
